A study of Mus musculus with 6 samples.

Results

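The genes described here were listed as suppressor products of regulatory T cells (Treg), which restrain other immune cells. They include the adenosine-forming enzymes Entpd1 and Nt5e, the cytokine genes Il10 and Ebi3, and the protease gene Gzmb. Fgl2, Penk and Ecm1 encode secreted proteins, and Gpr83 a receptor. Members were all probe sets whose gene symbol in the platform annotation was 1 of 10 listed genes. The rule found 11 probe sets of 9 genes, among 22626 probe sets tested that carry 12393 named genes. No probe set carried the symbol Areg alone, so Areg, the growth factor gene that completes the list, was not analysed here. Gpr83 is a membrane receptor and is neither secreted nor an enzyme, although it was listed with the others.

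Total RNA was measured in 3 samples from HDAC9-/- mice and 3 samples from wild type mice, both of the C57BL/6 strain, on 1 array per sample. HDAC9 is a class IIa histone deacetylase. The cells were the CD4+CD25+ fraction, isolated with magnetic beads. The samples are called independent, but the age and number of the mice, the deleted exons and any pooling are not stated in the labels. The p-values therefore measure the spread between these samples.

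Treg use several routes of suppression side by side. Extracellular ATP, a danger signal, is cut to AMP by CD39, the product of Entpd1, and AMP is cut to adenosine by CD73, the product of Nt5e, after which adenosine acts on receptors of nearby lymphocytes. Secreted interleukin-10 acts mainly on antigen-presenting cells, Ebi3 pairs with Il12a to form interleukin-35, and granzyme B, once released with perforin, kills target cells.

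The only Hdac9 probe set was dim, at 3.62 to 3.74 in HDAC9-/- and 3.50 to 4.10 in wild type samples on the log2 scale, and since the deleted exons are not stated it does not check the labels. The fraction carried Treg and T cell transcripts in both genotypes. Foxp3, the factor that defines Treg, read 10.37 ± 0.055 in HDAC9-/- and 10.34 ± 0.046 in wild type samples on the log2 scale (SD, n = 3). Cd4 read 9.83 ± 0.08 in HDAC9-/- and 9.90 ± 0.10 in wild type samples. A dim Cd4 probe set was lower in HDAC9-/- samples without overlap (difference -0.38, limma, adjusted p = 0.496). The 3-prime control probe set of Gapdh exceeded the 5-prime one, a gap that depends on RNA integrity and labelling, by 0.15 to 0.28 in HDAC9-/- and 0.03 to 0.11 in wild type samples. Markers of myeloid cells had positive differences for 15 of 15 genes, with a mean log2 level of 7.89 to 8.38 in HDAC9-/- and 7.54 to 7.92 in wild type samples, ranges that overlap through HDAC9-/- replicate 3. Markers of CD8 T and natural killer cells had positive differences for 9 of 12 genes, with mean levels of 8.02 to 8.32 in HDAC9-/- and 7.94 to 8.07 in wild type samples. Median differences were 0.0086 for 12 Treg identity genes, -0.047 for 7 T cell identity genes, 0.065 for 7 B cell markers (0.32 without HDAC9-/- replicate 3 and -0.055 without HDAC9-/- replicate 1) and -0.11 for 4 plasma cell markers. Of the last, Jchain, the joining chain of secreted antibodies, read 11.58, 11.39 and 11.59 in HDAC9-/- replicates, against 11.99, 11.93 and 12.04 in wild type replicates, without overlap (difference -0.47, limma, adjusted p = 0.337). Wild type replicate 3 stood apart from the other arrays, with a limma array weight of 0.298 against 0.96 to 1.96 for the rest.

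None of the 11 member probe sets passed an adjusted p of 0.05 between the genotypes (limma, Benjamini-Hochberg over all probe sets, lowest adjusted p = 0.441), and 3 of all 22626 probe sets did, which is 0.0133%. At an unadjusted p below 0.05 there was 1 member probe set, that of Ecm1, against 8.78% of all probe sets. Log2 differences, here always HDAC9-/- minus wild type, were positive for 6 and negative for 5 probe sets, with a median of 0.024 beside 0.0078 over all probe sets. They ran from -0.29 for Ecm1 to 0.49 for Gzmb. The genotypes did not overlap for 1 member probe set, again that of Ecm1, which was lower in HDAC9-/- samples, while 17.0% of all probe sets did not overlap and 6.04% did so with lower values in HDAC9-/- samples. A share of 1 in 11 is no larger than the 17.0% of the whole array.

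**Figure D1:**
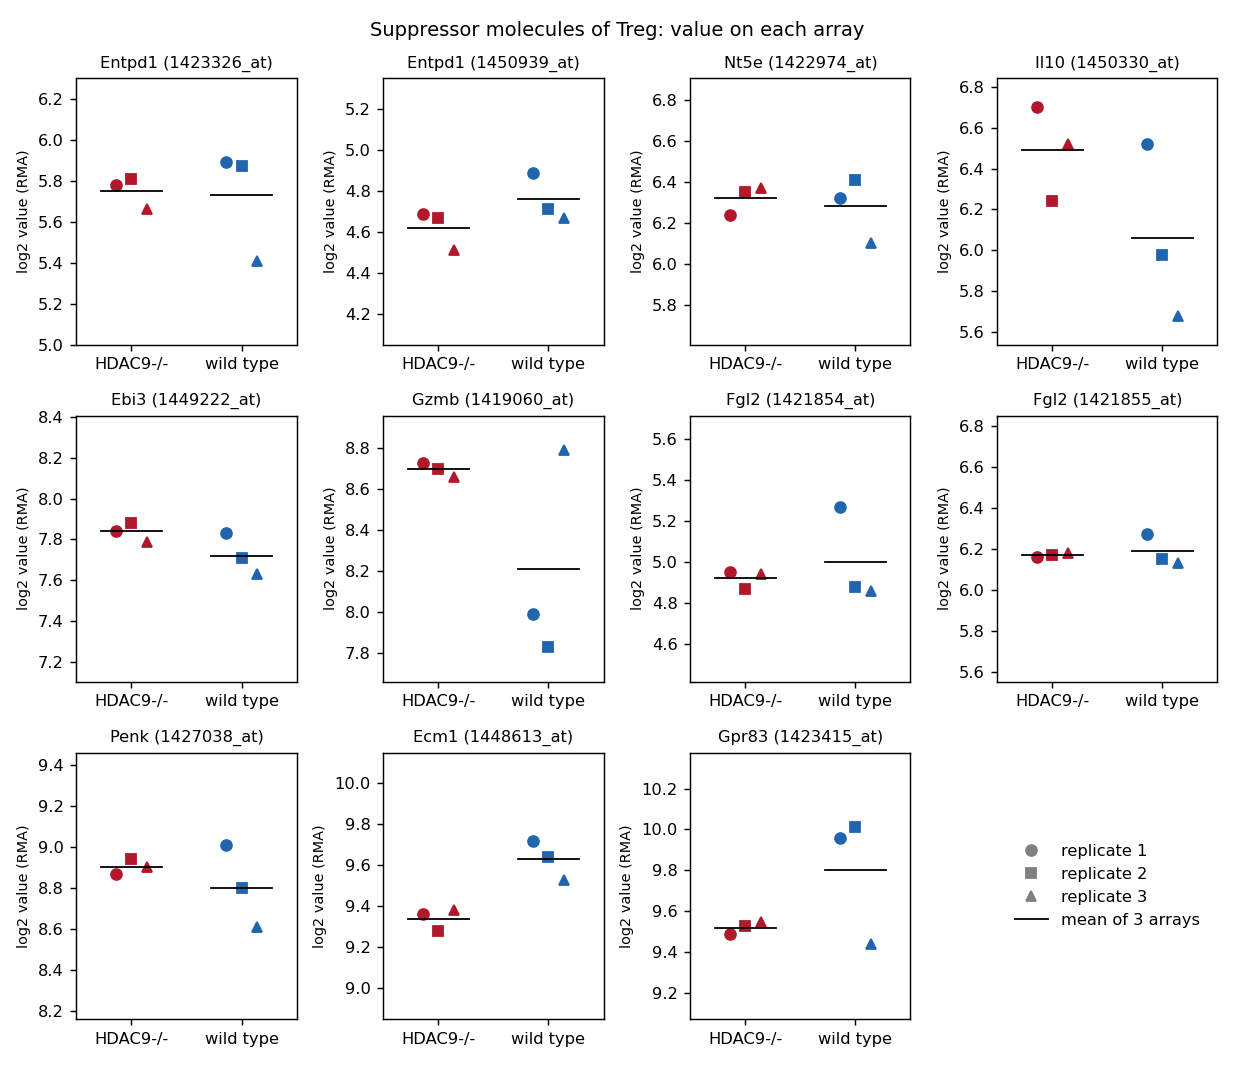
Log2 value (RMA) of each of the 11 member probe sets on each array, HDAC9-/- left and wild type right, with a horizontal line at the mean of 3 arrays; all panels span the same number of log2 units. The HDAC9-/- arrays lie closer together than the wild type arrays in each panel, and Ecm1 is the panel without overlap.

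Ecm1, a secreted glycoprotein of the extracellular matrix, was the member with the smallest p. Probe set 1448613_at read 9.36, 9.28 and 9.38 in HDAC9-/- replicates 1 to 3, against 9.72, 9.64 and 9.53 in wild type replicates 1 to 3. Each HDAC9-/- sample was below each wild type sample. The difference was -0.29 (standard error 0.077, 95% confidence interval -0.47 to -0.11), a ratio of 0.818 to wild type, and it did not pass over all probe sets (limma, adjusted p = 0.441). Across the 12 alternative settings it stayed between -0.34 and -0.24, with adjusted p from 0.168 to 0.81. The Gapdh 3-prime to 5-prime difference and Jchain also separated the genotypes, and their part in the Ecm1 difference was not tested.

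Gpr83, a G protein-coupled receptor gene known for its high expression in mouse Treg, was also lower without passing. Probe set 1423415_at read 9.49, 9.53 and 9.55 in HDAC9-/- replicates 1 to 3, against 9.96, 10.01 and 9.44 in wild type replicates 1 to 3. Wild type replicate 3 was the lowest of all 6 arrays, so the groups overlapped through that 1 array. The difference was -0.28 (standard error 0.15, 95% confidence interval -0.65 to 0.084, limma, adjusted p = 0.625). Without wild type replicate 3 it was -0.47 (adjusted p = 0.189), whereas it shrank to -0.18 when wild type replicate 2 was left out (adjusted p = 0.703).

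Gzmb, which encodes granzyme B, had the largest positive difference of the members. Probe set 1419060_at read 8.73, 8.70 and 8.66 in HDAC9-/- replicates 1 to 3, against 7.99, 7.83 and 8.79 in wild type replicates 1 to 3. Wild type replicate 3 was the highest of all arrays, while the other wild type arrays lay below every HDAC9-/- array. The difference was 0.49 (standard error 0.24), a 1.4-fold ratio with a 95% confidence interval of 0.952 to 2.07 (limma, adjusted p = 0.601). It was 0.78, or 1.72-fold, without wild type replicate 3 (adjusted p = 0.0914) and 0.30 without wild type replicate 2 (adjusted p = 0.655), so it did not pass in either case. The wild type SD of 0.51 was reached or exceeded by 2.48% of all probe sets, whereas the HDAC9-/- SD of 0.034 was reached or exceeded by 88.5%.

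CD8 T and natural killer cells also make granzyme B, and in a bulk sample more cells of a type and more RNA per cell cannot be told apart. Their marker Gzma, a granzyme, read 10.59, 10.84 and 10.41 in HDAC9-/- replicates, against 9.94, 10.34 and 10.69 in wild type replicates. Like Gzmb, it was highest among the wild type arrays in replicate 3, one of 7 such genes among the 12 markers of this list, against 7923 of all 22626 probe sets. Among these, Ccl5, a chemokine gene, read 11.55, 11.53 and 11.59 in HDAC9-/- replicates, against 11.13, 11.12 and 11.52 in wild type replicates. Klrd1, a natural killer cell receptor gene, read 9.05, 9.08 and 8.86 in HDAC9-/- replicates, against 8.67, 8.65 and 8.97 in wild type replicates. The others were Ncr1, Nkg7, Eomes and Klrk1. For 4 markers, Cd8a, Cd8b1, Klrc1 and Gzmk, replicate 3 was the lowest wild type array. Prf1, which encodes perforin, lay between and had a difference of -0.096 (limma, adjusted p = 0.827). Each gene was counted by its brightest probe set. The dimmer Prf1 probe set differed by 0.12 and was lowest of all arrays in wild type replicate 3, at 4.57. The dimmer Eomes probe set was highest among the wild type arrays in replicate 2. Cd8a read 6.27 ± 0.57 in HDAC9-/- and 5.98 ± 0.09 in wild type samples (SD, n = 3). The part of these cells in the Gzmb values was not tested.

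Il10, the gene of the suppressive cytokine interleukin-10, was higher without passing. Probe set 1450330_at read 6.70, 6.24 and 6.52 in HDAC9-/- replicates 1 to 3, against 6.52, 5.98 and 5.68 in wild type replicates 1 to 3. The groups overlapped, since wild type replicate 1 reached the value of HDAC9-/- replicate 3 and exceeded that of replicate 2. The difference was 0.43 (standard error 0.22), and the 95% confidence interval of the ratio ran from 0.929 to 1.94 (limma, adjusted p = 0.611). It was 0.66 without wild type replicate 1, 0.24 without wild type replicate 3 and 0.21 with array weights, and did not pass in any of these.

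Ebi3, the shared chain of interleukin-35 and interleukin-27, did not pass. It read 7.84, 7.88 and 7.79 in HDAC9-/- replicates 1 to 3, against 7.83, 7.71 and 7.63 in wild type replicates 1 to 3. The difference was 0.11 (95% confidence interval -0.071 to 0.30, limma, adjusted p = 0.675). It was 0.064 without wild type replicate 3, and 0.17 when wild type replicate 1 was left out. Il12a, the partner chain of interleukin-35, read 3.81 ± 0.28 in HDAC9-/- and 3.82 ± 0.22 in wild type samples (SD, n = 3), below the median of all probe sets at 5.76, and Il27 had no probe set of its own symbol here.

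Neither adenosine enzyme passed, and the genotypes overlapped for both. Nt5e read 6.24, 6.35 and 6.37 in HDAC9-/- replicates 1 to 3, against 6.32, 6.41 and 6.10 in wild type replicates 1 to 3, a difference of 0.045 (95% confidence interval -0.19 to 0.28, limma, adjusted p = 0.893). The brighter Entpd1 probe set, 1423326_at, read 5.78, 5.81 and 5.66 in HDAC9-/- replicates, against 5.89, 5.87 and 5.41 in wild type replicates, a difference of 0.024 (adjusted p = 0.963). Wild type replicate 3 was the lowest array for both genes, and without it the differences were -0.13 for that Entpd1 probe set and -0.045 for Nt5e. The dimmer Entpd1 probe set, 1450939_at, read 4.69, 4.67 and 4.51 in HDAC9-/- replicates, against 4.89, 4.71 and 4.67 in wild type replicates. It had a difference of -0.13 (adjusted p = 0.67) and kept its sign without any 1 array. The confidence intervals of the ratio were 0.81 to 1.28 and 0.786 to 1.06 for the Entpd1 probe sets and 0.878 to 1.21 for Nt5e.

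Penk and Fgl2 did not separate either. Penk, the precursor of the enkephalin opioid peptides, read 8.87, 8.94 and 8.90 in HDAC9-/- replicates 1 to 3, against 9.01, 8.80 and 8.61 in wild type replicates 1 to 3. Its difference was 0.099 (limma, adjusted p = 0.786) with all arrays, 0.20 without wild type replicate 1, and 0.00039 when wild type replicate 3 was left out. Fgl2 encodes a secreted fibrinogen-like protein that binds the inhibitory receptor Fcgr2b. Its brighter probe set, 1421855_at, read 6.16, 6.17 and 6.18 in HDAC9-/- samples, against 6.27, 6.15 and 6.13 in wild type samples, a difference of -0.016 (adjusted p = 0.947). The other, 1421854_at, read 4.95, 4.87 and 4.94 in HDAC9-/- samples, against 5.27, 4.88 and 4.86 in wild type samples. It differed by -0.081 (adjusted p = 0.843), and both Fgl2 differences turned positive without wild type replicate 1, at 0.027 and 0.051. The 95% confidence interval of the ratio was 0.884 to 1.11 for the brighter and 0.778 to 1.15 for the dimmer Fgl2 probe set, and 0.898 to 1.28 for Penk.

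**Figure D2:**
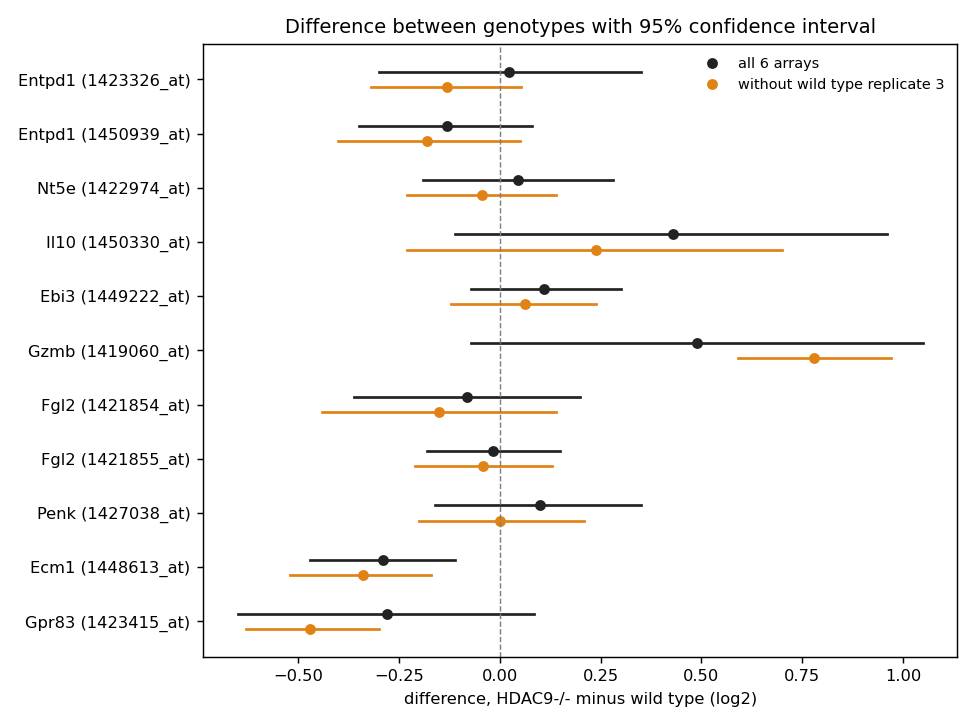
Difference between genotypes (log2, HDAC9-/- minus wild type) for each member probe set, with its 95% confidence interval from limma, for all 6 arrays (black) and without wild type replicate 3 (orange). The interval of Ecm1 lies below 0 in both; those of Gzmb (0.78) and Gpr83 (-0.47) leave 0 when that array is left out, although neither passed after adjustment.

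The members shared a wider spread among wild type than among HDAC9-/- arrays. The wild type SD was the larger for 11 of 11 probe sets, against 62.9% of all probe sets, with a median SD of 0.0435 over members in HDAC9-/- and 0.20 in wild type samples. Over all probe sets the median SD came to 0.0952 for HDAC9-/- and 0.122 for wild type samples. Wild type replicate 3 gave the lowest of the 6 values for 8 of 11 member probe sets, against 31.6% over the array. The exceptions were Gzmb, Ecm1 and the dimmer Entpd1 probe set. By the brightest probe set per gene, that array was the lowest wild type array for 8 of 9 members, against 45.4% of all probe sets. It was so too for 11 of 15 adenosine pathway genes and 9 of 13 regulators of Il10 and effector Treg, but for 4 of 17 granule genes. The probe sets of a gene share their samples and are not independent. Without wild type replicate 3 the genotypes did not overlap for 5 member probe sets, those of Gzmb (higher) and of Ecm1, Gpr83 and Entpd1 (both probe sets; lower). With 1 array fewer, 29.3% of all probe sets did not overlap. No member passed there, and 0.0265% of all probe sets did. Leaving out wild type replicate 1 instead also gave 5 member probe sets without overlap, against 27.6% of all probe sets. Il10, Ebi3, Penk and the brighter Fgl2 probe set were then higher, and Ecm1 was lower. No member passed in that case either.

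The letters of the RefSeq promoter windows (build GRCm38.p6) of Ecm1 and Gzmb are shown because these members had the smallest p and the largest difference. Each window holds 250 bases before and 50 after a transcription start, and capitals mark a match to the AP-1 motif TGACTCA, which reads TGAGTCA on the strand printed and begins 64 bases before the start in Ecm1 and 58 in Gzmb.
Ecm1, chr3:95739520-95739819, minus strand: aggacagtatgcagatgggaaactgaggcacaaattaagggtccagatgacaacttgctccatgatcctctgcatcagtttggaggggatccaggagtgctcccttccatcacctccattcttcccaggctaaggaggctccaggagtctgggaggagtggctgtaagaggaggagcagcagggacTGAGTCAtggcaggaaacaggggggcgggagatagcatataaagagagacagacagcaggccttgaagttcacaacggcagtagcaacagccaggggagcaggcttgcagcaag
Gzmb, chr14:56262285-56262584, minus strand: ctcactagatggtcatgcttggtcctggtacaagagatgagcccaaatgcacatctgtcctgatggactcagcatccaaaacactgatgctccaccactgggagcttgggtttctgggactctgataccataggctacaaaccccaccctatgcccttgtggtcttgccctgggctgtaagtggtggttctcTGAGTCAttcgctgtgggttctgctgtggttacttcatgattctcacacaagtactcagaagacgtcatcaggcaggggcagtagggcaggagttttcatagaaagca
Windows were on hand for 7 of the 9 measured genes, and 9 motifs were searched on both strands. Il10 and Penk had no window and were not searched. TGACTCA was in the windows of Ecm1, Gzmb and Fgl2 and in 5.2% of the 32851 windows in the table. No member window held the MEF2 consensus (3.19% of all windows), the forkhead letters TGTTTAC (3.65%) or TGTTTGC (5.07%), or TGACGTCA (1.79%). The short cores TGTTT and GGAAA, each in 4 of the 7 genes, were in 50.5% and 61.3% of all windows. TTCNNNGAA (8.3%) was in 2 genes, Fgl2 and Gzmb, and TGTGGT (16.8%) in Entpd1 and Gzmb. The TGTTT core lies within both longer forkhead motifs. A match describes the letters of a window and is not evidence that a factor was bound.

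The other genes of these pathways were described through lists, each gene by its brightest probe set. Of 151 genes over all 14 lists, 0 passed (limma), although Jchain did under a trended and robust variance prior (adjusted p = 0.0255). An unadjusted p below 0.05 was found for 24 of them, 20 with positive and 4 with negative differences; over all probe sets the share was 8.78%. Of the adenosine list, 15 of 24 genes were measured, 11 had positive differences and the median was 0.098; it was -0.024 without wild type replicate 3 and 0.017 with array weights. Adora2a, the adenosine receptor of T cells, had no probe set of its own symbol here. Ada, which degrades adenosine, differed by 0.098 (adjusted p = 0.792), and Dpp4, the surface peptidase that binds Ada on human T cells, by -0.16 (adjusted p = 0.627) and in a dim probe set by -0.23. Adk, the adenosine kinase gene, was noticed after its values were seen. Its brightest probe set differed by 0.12 and the next, 1416319_at, by 0.28 (limma, adjusted p = 0.454). The dim Adk probe sets 1449641_at and 1421767_at differed by 0.25 and -0.032, and the latter overlapped between genotypes. Probe set 1416319_at read 8.56, 8.49 and 8.45 in HDAC9-/- samples, against 8.31, 8.25 and 8.09 in wild type samples.

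Of 17 measured granule genes 13 had positive differences, and the list median was 0.14; it was 0.051 without wild type replicate 2, 0.07 without HDAC9-/- replicate 3 and 0.20 without wild type replicate 3. At an unadjusted p below 0.05 there were 5, each with a positive difference, and 0 passed after adjustment. Over all probe sets, 8.78% had such a p, and 5.55% had it with a positive difference. Ctsl, a lysosomal protease, read 6.93, 6.92 and 7.11 in HDAC9-/- replicates, against 6.51, 6.55 and 6.38 in wild type replicates, a difference of 0.51 (standard error 0.084, limma, adjusted p = 0.311). The groups did not overlap, and the gap was wider than the range of either group. Gzmm, a granzyme of natural killer cells, differed by 0.28 (adjusted p = 0.529), and Serpinb9, a granzyme B inhibitor, by 0.21 (adjusted p = 0.557). Gzmc (0.34) and Gzmf (0.20) were dim, at 4.25 and 3.44 in HDAC9-/- and 3.91 and 3.24 in wild type samples. Srgn, the proteoglycan that packs granules, differed by 0.038. Macrophages also express Ctsl, and the myeloid markers had positive differences too. Ctsl was highest in HDAC9-/- replicate 3. That array held the lowest HDAC9-/- value for 11 of 15 myeloid markers, against 38.8% of all probe sets. The markers for which it did not were Itgam, Flt3, S100a8 and S100a9. Of the whole list, S100a8 and S100a9 had the largest differences, at 0.96 and 1.01. Of the 15, 6 were higher in each HDAC9-/- than in each wild type sample, against 2489 of all 22626 probe sets. The part of these cells was not tested.

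None of the receptor chains for the member cytokines passed. Of 10 measured partners of interleukin-10 and interleukin-35, 8 had negative differences, with a median of -0.048. Il10ra differed by 0.023, Il10rb by -0.11 and Il6st, a receptor chain of interleukin-35, by 0.057. Their dimmer probe sets differed by -0.058 and -0.45 for Il10ra and by -0.28 and 0.087 for Il6st. Il12rb2, the other receptor chain of interleukin-35, read 4.39 ± 0.06 in HDAC9-/- and 4.81 ± 0.17 in wild type samples (SD, n = 3, limma, adjusted p = 0.422), below the median of all probe sets.

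Among 13 measured regulators of Il10 and of effector Treg, 2 had an unadjusted p below 0.05 in the positive and 1 in the negative direction. The shares over all probe sets were 5.55% in the positive and 3.23% in the negative direction. Nfil3, a transcription factor that drives Il10 in mouse T cells, read 7.08, 6.81 and 7.05 in HDAC9-/- replicates, against 6.59, 6.68 and 6.46 in wild type replicates (difference 0.40, limma, adjusted p = 0.432). Ahr, the aryl hydrocarbon receptor, differed by 0.40 (adjusted p = 0.495) in its brighter and by 0.008 in its dimmer probe set. The genotypes did not overlap for Nfil3 or for the brighter Ahr probe set, while they did for Il10 itself. Id2, an inhibitor of E proteins, differed by -0.47 and -0.36 in its bright probe sets and by -0.042 in a dim one. Prdm1, which encodes Blimp-1, an activator of Il10 in effector Treg, differed by 0.022, with a 95% confidence interval of -0.14 to 0.18. Maf was dim, at 4.59 ± 0.19 in HDAC9-/- and 4.86 ± 0.46 in wild type samples (SD, n = 3).

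Of 18 other suppressor molecules of Treg, 10 differed in the positive and 8 in the negative direction, and the median was 0.046. Il1r2, the decoy receptor that binds interleukin-1, read 7.71, 7.85 and 7.91 in HDAC9-/- replicates, against 7.16, 7.25 and 7.32 in wild type replicates. The difference of 0.58 (standard error 0.082) had the lowest adjusted p of the list, 0.299 (limma). Neutrophils and monocytes also carry Il1r2. Like Il1r2, the neutrophil genes S100a8 and S100a9 did not overlap between genotypes, with differences of 0.96 and 1.01 (adjusted p = 0.454 and 0.445). Nor did the myeloid markers Cst3 (difference 0.33) and Flt3 (difference 0.47). S100a8 read 11.85, 12.03 and 11.99 in HDAC9-/- replicates, against 10.30, 11.36 and 11.32 in wild type replicates. S100a9 read 11.49, 11.75 and 11.70 in HDAC9-/- replicates, against 9.94, 10.99 and 10.98 in wild type replicates. Like Il1r2, both were lowest in replicate 1 of each genotype. In HDAC9-/- replicate 3, where Il1r2 was highest, Cst3 read 10.63, against 10.33 to 10.61 in wild type samples. Flt3 read 6.82 there, against 6.23 to 6.53 in wild type samples. Csf1r, the receptor gene of monocytes and macrophages, read 7.01 in that replicate, against 7.18 to 7.62 in wild type samples. Of the 15 myeloid markers, 6 did not overlap, each with higher values in HDAC9-/- samples, and the rest overlapped, Csf1r among them. The part of these cells was not tested. Lgals1, which encodes galectin-1, differed by 0.21 in the brighter of its probe sets and by 0.23 in the dimmer (adjusted p = 0.487 and 0.495). Il2ra, the CD25 gene used for the isolation, read 9.39 ± 0.05 in HDAC9-/- and 9.48 ± 0.05 in wild type samples (SD, n = 3, limma, adjusted p = 0.712). Its dimmer probe set differed by -0.19 (adjusted p = 0.557). Both were lower in each HDAC9-/- than in each wild type sample, as were 6.04% of all probe sets.

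**Figure D3:**
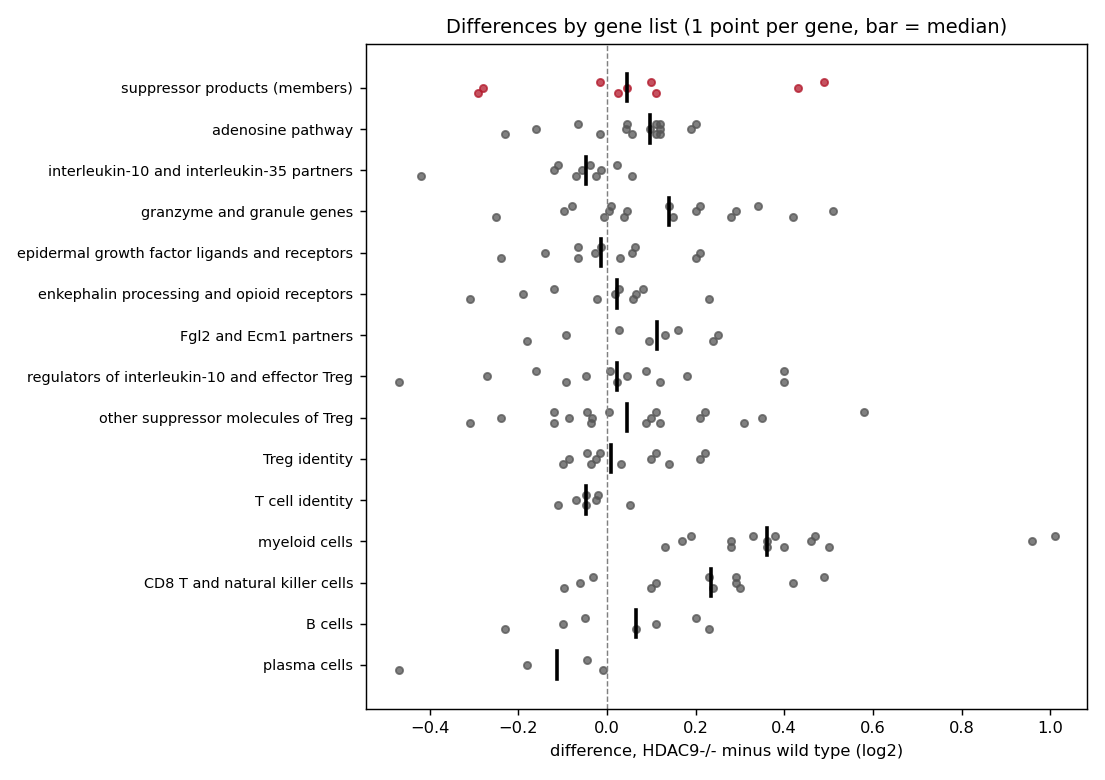
Difference between genotypes (log2, HDAC9-/- minus wild type) by gene list, with 1 point per gene at its brightest probe set and a bar at the list median; members are in red at the top. Members spread from -0.29 to 0.49 on both sides of 0, while the 15 myeloid markers all lie above 0.

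The enzymes and receptors for enkephalins, the epidermal growth factor family and the partners of Fgl2 and Ecm1 had medians of 0.023, -0.014 and 0.11 over 10, 11 and 8 measured genes, with none past the adjusted threshold. Oprd1, an enkephalin receptor, read 3.52 ± 0.10 in HDAC9-/- and 3.54 ± 0.43 in wild type samples (SD, n = 3), below the median of all probe sets. Fcgr2b, the Fgl2 receptor, differed by -0.18 (limma, adjusted p = 0.835) in its brightest probe set and by 0.16 to 0.42 in 3 others. Egfr, the receptor of the product of Areg, differed by 0.056 (adjusted p = 0.912) in its brightest probe set and by -0.36 to 0.28 in 4 dimmer ones.

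Gzmb, Il10 and Gpr83 had the widest spread over the 6 arrays among the brighter members, with SDs of 0.423, 0.387 and 0.255. For each, the most alike of 10372 probe sets were found by the mean absolute difference between profiles centred on their own mean. Nearest to Gzmb were Cdkn1a, a cell cycle inhibitor gene (0.107), Batf3 (0.115) and Serhl (0.115). Cdkn1a read 6.88, 6.64 and 7.02 in HDAC9-/- replicates, against 6.17, 6.17 and 6.96 in wild type replicates, so it too was high in wild type replicate 3. Nearest to Il10 were Dtl (0.114), Dyrk1a (0.114) and Ckap2 (0.12), of which Dtl and Ckap2 act in the cell cycle, and wild type replicate 3 was the lowest array for each. Nearest to Gpr83 were Dennd6a (0.0441), Lbh (0.0449) and Tubgcp4 (0.0452), which were high in wild type replicates 1 and 2. These distances describe 6 arrays, and with so many probe sets some are alike in any case.

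**Figure D4:**
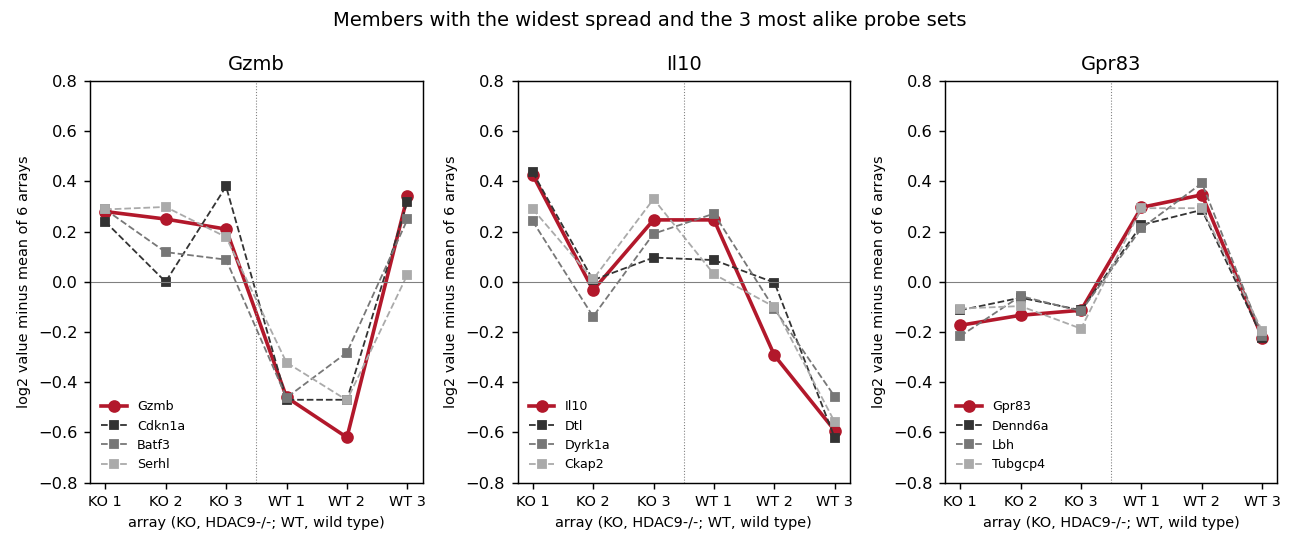
Log2 value minus the mean of 6 arrays for Gzmb, Il10 and Gpr83 (red) and for the 3 most alike probe sets of each (grey), with the HDAC9-/- arrays (KO) left and the wild type arrays (WT) right. In each panel wild type replicate 3 departs from the other wild type arrays, upward for Gzmb and downward for Il10 and Gpr83.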

How the data were processed

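Gene expression in CD4+CD25+ T cells was measured on arrays for 3 HDAC9-/- and 3 wild type samples, grouped and numbered by their titles. Per the labels, total RNA was isolated on columns, amplified and labelled with biotin. The deposited values are on a log2 scale, and the submitters' processing notes name RMA, with no version or settings. RMA compresses the fold changes of dim probe sets. The number of arrays limits the precision.

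Of 22690 probe sets, 64 controls were left out and 22626 tested without a filter. Of these, 20380 carry 1 gene symbol, 691 several and 1555 none; only those with 1 were named, with symbols updated through Entrez identifiers (GRCm38.p6 gene table). The table names no genome build, so genes have no coordinates. The genotypes were compared with limma (version 3.58.1, R 4.3.3; lmFit, then eBayes, no covariate). Adjustment was by Benjamini-Hochberg over all probe sets with a threshold of 0.05, and the procedure was tested on simulated data. The text names the members, up to 4 genes of smallest unadjusted p per list, direct partners of the members, and the 3 most alike probe sets of 3 members. Serpinb9, Adk, and Cd8a, Cd8b1, Klrc1, Ncr1, Nkg7, Klrk1, Csf1r and Itgam among the cell markers, outside that rule, were chosen after their values were seen. Members and lists were chosen with earlier results of these data known. Python 3.11.15 and matplotlib 3.10.9 were used for the figures.

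Alternatives were other array scalings, a filter on dim probe sets, a trended and robust variance prior, weighted arrays, a block for the replicate number, leaving out each array, an adjusted p of 0.10 and the brightest probe set per gene.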

Additional observations from a re-analysis of the deposited data

How the results depend on the processing

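No member probe set passed under any alternative run (0 in each, limma). Their median difference was 0.024 and ran from -0.045 to 0.097 over the alternatives, so its sign was not stable. Over the array the number of probe sets past the threshold was 3; it was 15 with a trended and robust prior, 6 with array weights, 5 at an adjusted p of 0.10, 0 with the replicate block, and 0 to 6 when 1 array was left out. The count of member probe sets without overlap was 1, and 1 to 5 with 1 array left out, where 25.7% to 29.3% of all probe sets did not overlap. The sign of the brighter Entpd1 probe set turned with array medians aligned (-0.0014) and with array weights (-0.07), and leaving out 1 array gave -0.13 to 0.11. Nt5e turned with array weights (-0.0086), with -0.045 to 0.11 when 1 array was left out. Leaving out 1 array gave -0.15 to 0.051 for Fgl2 1421854_at and -0.042 to 0.027 for 1421855_at, which was -0.051 after quantile normalization. Of the 14 list medians, 7 turned sign under at least 1 alternative, and 17 of 168 recomputed list medians moved by more than the replicate spread. The plasma cell median was -0.32 without dim probe sets, and 1 gene of that list, Jchain, passed under the trended and robust prior. The causes were not tested. The replicate number had no stated meaning: same-numbered samples had deviations from their group means that correlated at 0.0365, 0.0991 and -0.249 across probe sets, not every sample correlated best with its own number, and the replicate block changed no member's call. The filter dropped 3 member probe sets, which then had no value. Probe sets below the median of the array were not shown to be above background, which limits both Entpd1 probe sets and the dimmer one of Fgl2.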
